A study of Mus musculus with 6 samples.

Results

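The distal end of mouse chromosome 4 was taken as every DpnII fragment end listed over 5 Mb downstream of the Wnt4 viewpoint. It runs from position 141832109 to the end of the chromosome at 155630120 (mm9), a stretch of 13.8 Mb. It holds 32605 of the 369081 listed fragment ends, or 8.83%. Membership was set by position, at a fixed distance from the viewpoint end, and not by the reads within the stretch. Contacts were measured by circularised chromosome conformation capture (4C-seq), in which DNA that lay near a chosen fragment, the viewpoint, is ligated to it and counted. The viewpoint was the promoter of Wnt4 (chr4:136833404-136855641, plus strand), which encodes a secreted signalling ligand. The 6 libraries came from BC44 and HC11, a pair of mouse mammary epithelial cell lines, with 3 replicates each. Cells were fixed with 2% formaldehyde for 10 min. The groups differed by line and by medium: both lines grew in RPMI1640 with serum and insulin, and EGF at 10 ng/ml was added for HC11 alone, so line and EGF cannot be told apart. Nothing in the labels says that replicates were separate cultures, so p-values measure only the spread between libraries.

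A chromosome occupies a territory of its own in the nucleus, and within it the chance that 2 loci meet falls with the distance between them. At distances of many megabases the fall is slow, and contacts are known to depend on chromatin type: gene-rich, active stretches tend to meet other active stretches, and gene-poor, silent stretches meet silent ones. Wnt4 acts downstream of progesterone in the mammary gland, where the ligand promotes growth of the ductal tree. The distal end of chromosome 4 holds long single genes, dense runs of small genes toward the telomere, and large clusters of recent paralogues, the Pramel and Oog genes of germ cells and the KRAB zinc-finger genes.

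Reads at this distance came from few fragment ends, and hardly any end was seen in more than 1 library. Of the 32605 listed ends, 1711 (5.25%) had at least 1 read in some library, 1640 of them in a single library, 67 in 2 and 4 in 3, and none in 4 or more. The 4 ends captured in 3 libraries are shown because they are the most recurrent contacts of the stretch. Each sequence runs from the DpnII site to the nearest NlaIII site of the same fragment, which is the part that 4C-seq amplifies, and the capitals mark these sites (GATC and CATG).

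144436960: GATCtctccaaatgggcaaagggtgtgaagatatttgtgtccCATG
150197645: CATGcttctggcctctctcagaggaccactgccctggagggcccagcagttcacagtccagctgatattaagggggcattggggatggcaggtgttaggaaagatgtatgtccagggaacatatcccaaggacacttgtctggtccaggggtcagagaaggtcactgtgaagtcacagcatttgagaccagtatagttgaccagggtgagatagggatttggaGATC
151317396: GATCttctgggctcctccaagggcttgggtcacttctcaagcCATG
153320897: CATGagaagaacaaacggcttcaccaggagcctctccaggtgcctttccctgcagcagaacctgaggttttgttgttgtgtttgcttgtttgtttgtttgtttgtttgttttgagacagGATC

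All 4 are written as the plus strand of mm9. Each has 1 exact copy in that genome, counting both strands, and near copies were not counted. The end at 144436960 (chr4:144436960-144437005) lay in no annotated gene, 45.8 kb upstream of the start of Dhrs3, a retinaldehyde reductase gene. It had 2 reads in BC44 replicate 2, 2 in HC11 replicate 2 and 1 in HC11 replicate 3, so its recurrence rested on 5 reads in all. The end at 151317396 (chr4:151317396-151317441) lay in an intron of Dnajc11, which encodes a mitochondrial chaperone cofactor, and had 1, 2 and 2 reads in BC44 replicates 1 and 3 and HC11 replicate 3. More reads supported the remaining ends. The end at 150197645 (chr4:150197419-150197645), 30.4 kb upstream of Errfi1, an inhibitor of EGF receptor signalling, had 81 reads in BC44 replicate 1, 83 in BC44 replicate 2 and 2 in HC11 replicate 2. The end at 153320897 (chr4:153320775-153320897), 10.4 kb upstream of A430005L14Rik, had 196 reads in BC44 replicate 2, 15 in BC44 replicate 3 and 344 in HC11 replicate 3. In every other library these 4 ends had 0 reads, which allows up to 3 counts.

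The end with the highest mean CPM in each line, where CPM is the read count scaled to the library's reads over 2 kb from the viewpoint, is shown beside them; each was captured in 1 library.

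144929098: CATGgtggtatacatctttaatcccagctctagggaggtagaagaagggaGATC
149534710: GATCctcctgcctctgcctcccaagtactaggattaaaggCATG

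The end at 144929098 (chr4:144929045-144929098) lay in no annotated gene, 24.0 kb upstream of Tnfrsf8, and had 1356 reads in BC44 replicate 3 and 0 in the other libraries. The end at 149534710 (chr4:149534710-149534753), in an intron of the sugar transporter gene Slc2a7, had 306 reads in HC11 replicate 2, or 3261 CPM, and 0 elsewhere. Both sequences have 1 exact copy in mm9, and near copies with mismatches were not counted. A single ligation event amplified by PCR can give many reads, and the labels name no molecular identifiers. The results below therefore count captured ends, those with at least 1 read, and give reads beside them.

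Library depth differed widely. Total counts on chromosome 4 ranged from 825498 to 1401717 in BC44 and from 96690 to 1755373 in HC11, where replicate 2 was the shallowest. The replicate 1 libraries of BC44 and HC11 held 41.4% and 45.2% of their reads within 2 kb of the viewpoint, against 2.27% to 3.46% in the others. Shares of reads were taken over the reads outside 2 kb, 93823 to 962655 per library. The viewpoint position was the end with the largest read count scaled to library totals and summed over libraries; it was the highest end in the replicate 1 libraries only.

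Captured ends at the distal end numbered 507, 303 and 257 in the BC44 libraries, in replicate order, and 316, 208 and 195 in those of HC11. As shares of the listed ends these were 1.55% (95% Wilson interval 1.43 to 1.70), 0.929% (0.831 to 1.04) and 0.788% (0.698 to 0.890) in BC44. In HC11 they were 0.969% (0.868 to 1.08), 0.638% (0.557 to 0.730) and 0.598% (0.520 to 0.688). Intervals cover counting error only. BC44 replicate 1 stood above every other library, and the other 5 overlapped between the lines. The distal end supplied 4.36% to 7.78% of the captured ends of a library against its 8.83% of the listed ends.

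Neither measure separated the lines. BC44 had a captured share of 1.09% ± 0.408 (SD, n = 3) and HC11 one of 0.735% ± 0.204 (SD, n = 3), a difference of -0.356 percentage points (two-sided exact permutation p = 0.3, adjusted p = 0.6 over 2 comparisons). It was lower in HC11 in 3 of 3 same-numbered pairs. Without BC44 replicate 1 the difference was -0.124 points. Depth moved with it: after rarefaction of each library to 93823 reads, the depth of the shallowest, the shares were 0.840% ± 0.301 (SD, n = 3) and 0.622% ± 0.153 (SD, n = 3), a difference of -0.218 points (exact p = 0.5). As a share of reads outside 2 kb, the distal end took 4.17%, 2.89% and 3.65% in the BC44 libraries and 3.80%, 3.49% and 2.59% in the HC11 libraries, again in replicate order. The means were 3.57% ± 0.643 (SD, n = 3) and 3.29% ± 0.630 (SD, n = 3), a difference of -0.273 points (exact p = 0.6, adjusted p = 0.6), smaller than the spread between replicates. The sign of this read difference was not stable: it was 0.0262 points without BC44 replicate 1, 0.0794 points without HC11 replicate 3, and 0.656 points with all 6 libraries when reads over 1 Mb away were the total. With 3 libraries per line the smallest possible p is 0.1.

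Capture along the distal end was far from even. In windows of 1 Mb counted from the viewpoint, the captured share averaged over the 6 libraries ranged from 0.431% at 15 to 16 Mb to 1.82% at 12 to 13 Mb. The highest window was the same in all 6 libraries, both by captured ends and by reads. It spans chr4:148832109-149832108 and 79, 52 and 42 of its 2628 listed ends were captured in the BC44 libraries against 35, 30 and 49 in the HC11 libraries. It held 11.1% to 25.1% of a library's captured ends at the distal end against 8.06% of the listed ends, and 13.3% to 39.2% of the reads. Its strongest end gave 10.8% to 48.4% of its reads, with the highest value in HC11 replicate 2. In that library 306 of the window's 632 reads came from that end, and the next window by reads, at 13 to 14 Mb, had 458. The lead by reads in HC11 replicate 2 therefore rested on 1 end. In HC11 replicate 1 the lead by ends was narrow, 35 against 32 of 2594 in the window at 11 to 12 Mb.

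**Figure D1:**
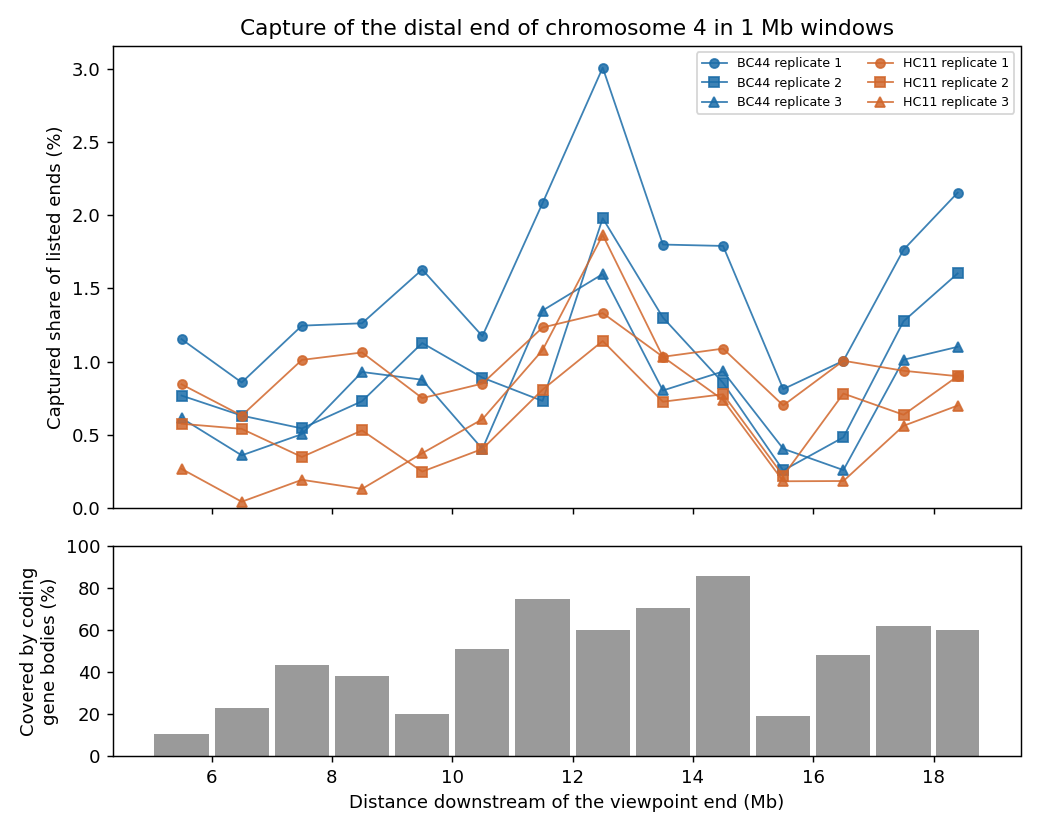
Upper panel: share of listed fragment ends with at least 1 read (percent) in the 14 windows of the distal end, against distance from the viewpoint end (Mb), with a line per library (blue BC44, orange HC11; circle, square and triangle for replicates 1, 2 and 3). Lower panel: percent of each window covered by protein coding gene bodies; the window at 12 to 13 Mb is the highest in all 6 libraries, and the low window at 15 to 16 Mb has 19.0% cover.

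The window at 12 to 13 Mb starts at Nmnat1, which encodes a nuclear NAD synthase, and runs to Rere, which encodes a nuclear receptor corepressor. It has 15 coding gene starts, among them Ctnnbip1, which encodes an inhibitor of beta-catenin binding to TCF, Pik3cd, a phosphoinositide 3-kinase subunit, the fructose transporter gene Slc2a5 and the glycolytic enzyme gene Eno1. At 100 kb, 3 of the 4 most captured stretches lay in it, ranked on the same captured ends that made the window the highest. The stretch chr4:149232109-149332108, which holds Spsb1, an adaptor of a ubiquitin ligase, led with 2.66% ± 1.11 (SD, n = 6). The next held Gpr157, Slc2a5 and Slc2a7, with 2.51% ± 1.67 (SD, n = 6), and another held Pik3cd, Tmem201 and Slc25a33, with 2.15% ± 1.67 (SD, n = 6). The remaining one of the 4, with 2.06% ± 1.08 (SD, n = 6), lay in Prkcz, an atypical protein kinase C gene near the telomere. Of the 134 stretches of 100 kb with at least 50 listed ends, 45 had captured ends in all 6 libraries and 2 in none. In the 3 Mb from 11 to 14 Mb, a group set with the window values known, 20 of 30 stretches were captured in all 6.

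The lowest window lay at 15 to 16 Mb, chr4:151832109-152832108, with 0.431% of its ends captured on average. It has 2 coding gene starts, those of the potassium channel subunit gene Kcnab2 and the ciliary gene Nphp4. The body of Ajap1, which starts beyond it, covers 84.8% of its last 100 kb. The BC44 libraries captured 22, 7 and 11 of its 2706 ends and the HC11 libraries 19, 6 and 5. It ranked 11 or lower of the 14 windows in all 6 libraries. The nearest window, at 5 to 6 Mb, has 1 coding gene start, that of the tumour suppressor gene Prdm2, and 0.705% ± 0.297 (SD, n = 6) of its ends were captured. The 1 Mb just before the boundary, at 4 to 5 Mb, had 1.72% ± 0.913 (SD, n = 6).

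The first 6 windows, from 5 to 11 Mb, gave less than their share of captured ends in all 6 libraries, and least in HC11 replicate 3. They hold 37.3% of the listed ends. Of the captured ends they gave 28.0%, 29.7% and 26.5% in the BC44 libraries and 33.2%, 26.9% and 16.9% in the HC11 libraries. By reads, they gave 25.5% to 31.2% in 5 libraries and 7.46% in HC11 replicate 3. In that library the window at 6 to 7 Mb had 1 captured end with 2 reads, while in the shallower HC11 replicate 2 it had 12 captured ends and 102 reads. HC11 replicate 3 stood apart from the other HC11 libraries here. Of its captured ends, 53.3% lay at 11 to 14 Mb, against 29.7% to 38.1% in the other libraries and 24.0% of the listed ends. Both this group of windows and the first 6 windows were set with the window values known and are given without a test.

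Despite these differences the window profiles were positively correlated in every pair of libraries. The Pearson correlation of the captured share over the 14 windows had a median of 0.737 over the 6 pairs of libraries within lines (0.718 to 0.930) and of 0.725 over the 9 pairs between lines (0.419 to 0.915). These are descriptions across windows that share annotation, base composition and mappability. The lowest value, 0.419, was between BC44 replicate 2 and HC11 replicate 1. Spearman rho ranged from 0.284, in that same pair, to 0.895, between BC44 replicates 1 and 3.

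The lines were then compared window by window with edgeR's quasi-likelihood test, fitted on the 148 of 151 windows of 1 Mb along chromosome 4 over 1 Mb from the viewpoint that passed the filter on low counts. At the distal end all 14 windows passed the filter and 0 passed an adjusted p of 0.05; 0 had an unadjusted p under 0.05. Over all 148 windows 0% passed, and 6.08% had an unadjusted p under 0.05. The smallest edgeR adjusted p at the distal end was 0.864. Of the 14 windows, 8 had lower and 6 higher fitted values in HC11. The median log2 fold change, HC11 over BC44, was -0.10 at the distal end and -0.20 over all windows tested. The standard error ranged from 0.38, in the window at 12 to 13 Mb, to 1.25, so differences of several-fold in a window of few ends were not detectable.

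The 3 windows with the lowest unadjusted p were at 18 Mb to the chromosome end, 13 to 14 Mb and 17 to 18 Mb. The last window, chr4:154832109-155630120, is a run of 41 coding gene starts that includes the G protein subunit gene Gnb1, the Wnt signal transducer gene Dvl1 and Agrn. The BC44 libraries had 4732, 3163 and 2582 CPM there and the HC11 libraries 1142, 2824 and 1570 CPM, and HC11 replicate 2 lay within the BC44 range. The log2 fold change was -0.86 (SE 0.55, edgeR adjusted p = 0.864). The window at 13 to 14 Mb, chr4:149832109-150832108, holds Errfi1, the redox-sensing chaperone gene Park7 and the clock gene Per3. The BC44 libraries had 3033, 2559 and 2346 CPM there and the HC11 libraries 3702, 4882 and 4308 CPM. The HC11 values were higher throughout, with a log2 fold change of 0.74 (SE 0.48, edgeR adjusted p = 0.864). It was the only 1 of the 14 windows without overlap in CPM, against 12.8% of all windows tested; BC44 was above without overlap in 0 of the 14, against 10.1% of all. Its captured ends did not separate the lines, with 47, 34 and 21 of 2612 in the BC44 libraries and 27, 19 and 27 in the HC11 libraries. The window at 17 to 18 Mb, which holds Prkcz and the GABA receptor gene Gabrd, had a log2 fold change of -0.71 (SE 0.51, edgeR adjusted p = 0.864). By captured share, the mean was higher in BC44 in 13 of 14 windows. That count was not made over all windows, and window shares are not corrected for depth. In edgeR on captured ends, scaled between libraries by TMM, 4 of the 14 windows were lower and 10 higher in HC11. The direction of the count thus depended on scaling between libraries. By unscaled captured share, the lines did not overlap in 3 of the 14 windows, with BC44 above. Over all 148 windows tested this held in 15.5%, also with BC44 above. These 3 windows are described without a test. In the last window 43, 32 and 22 of 1997 ends were captured in the BC44 libraries against 18, 18 and 14 in the HC11 libraries. At 17 to 18 Mb the counts were 47, 34 and 27 of 2664 against 25, 17 and 15, and at 9 to 10 Mb 13, 9 and 7 of 798 against 6, 2 and 3. BC44 replicate 1, with 507 captured ends, is part of each of these means.

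The distal end was next set against the stretch at the same distances upstream, chr4:118034096-131832107. The captured share was lower at the distal end, 0.913% ± 0.348 against 1.19% ± 0.335 (SD, n = 6), and lower in 6 of 6 libraries. The difference within libraries was -0.279 ± 0.143 points (SD, n = 6; two-sided exact permutation test over sign changes, p = 0.0312, adjusted p = 0.0521 over 5 such comparisons). A p of 0.0312 is the smallest that 6 libraries can give, and the adjusted value missed 0.05. The ratio of the shares ranged from 0.531 in HC11 replicate 3 to 0.874 in HC11 replicate 1. The same test against all 309645 listed ends over 5 Mb upstream, most of them much farther away, went the other way: 0.406% ± 0.155 (SD, n = 6) of those were captured, and the distal end was higher by 0.507 ± 0.210 points (SD, n = 6) in 6 of 6 libraries (exact p = 0.0312, adjusted p = 0.0521).

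The deficit lay in the near part. At 5 to 10 Mb, 0.666% ± 0.336 (SD, n = 6) of ends were captured downstream and 1.52% ± 0.411 (SD, n = 6) upstream, and downstream was lower in 6 of 6 libraries. At 10 to 15 Mb the values were 1.19% ± 0.411 and 1.06% ± 0.305 (SD, n = 6), and downstream was lower in 1 library. From 15 Mb to the chromosome end they were 0.799% ± 0.338 and 0.893% ± 0.308 (SD, n = 6), and downstream was lower in 5 libraries. Upstream, the captured share of 1 Mb windows fell with distance, with a Spearman rho of -0.67 for the mean of libraries and from -0.66 to -0.51 in single libraries. At the distal end it did not: rho was 0.36 for the mean and 0.18 to 0.44 in single libraries. These bands and correlations were chosen after the window values were seen and are given without a test.

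**Figure D2:**
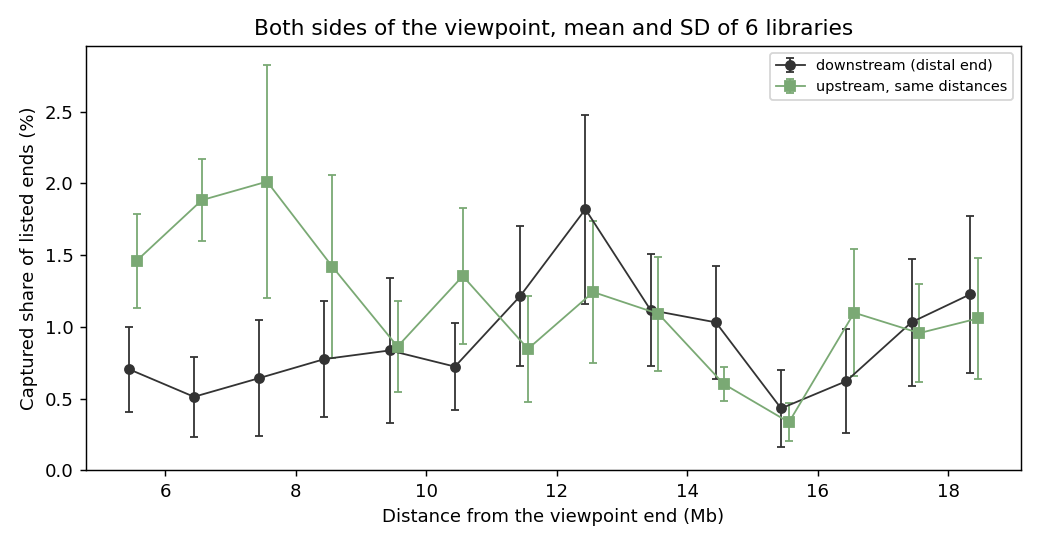
Captured share of listed fragment ends (percent) in 1 Mb windows against distance from the viewpoint end (Mb), for the distal end downstream (black circles) and the same distances upstream (green squares), as the mean and SD of 6 libraries. At 5 to 10 Mb the downstream share averages 0.666% and the upstream share 1.52%, while from 10 Mb the 2 sides overlap.

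Capture followed gene density more closely by one measure than by another. The 14 windows hold 215 coding gene starts in GENCODE release M1. Against gene starts per Mb, the mean captured share had a Spearman rho of 0.23 and a Pearson r of 0.27 (n = 14 windows), with rho from 0.05 to 0.30 in single libraries. This rho was 0.07 without the last, partial window and 0.40 with windows of 0.5 Mb. Against the share of the window covered by coding gene bodies, which ranged from 10.6% to 85.7%, rho was 0.71 and r 0.63, with rho from 0.48 to 0.77 in single libraries. Gene cover itself went with GC content (rho 0.54), which had a rho of 0.16 with the captured share, and distance went with GC content (rho 0.76). All windows share the same 6 libraries, so these values are descriptions without a p.

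The measures part at the window of Pramel and Oog genes. The window at 6 to 7 Mb has 25 coding gene starts, 18 of them of Pramel, Pramef or Oog genes under their file name or their RefSeq symbol, but 22.8% gene cover, and 0.512% of its ends were captured on average, the second lowest value. The window at 10 to 11 Mb also has 25 starts, 6 of them Zfp genes, with 0.723% captured. All 6 Zfp starts lay in its first 0.5 Mb, with 0.809% ± 0.433 captured (SD, n = 6). The second 0.5 Mb, with 0 Zfp starts, had 0.651% ± 0.307 (SD, n = 6). The first and second 0.5 Mb also differ in gene cover, 60.4% and 41.3%, and their captured shares were not tested against each other. The window at 14 to 15 Mb, from Camta1 to Chd5, has fewer starts, 19, but 85.7% cover, and 1.03% of its ends were captured. Without the paralogue windows the order of the measures changed by rho but not by Pearson r. In the 9 windows without such paralogues, a choice made after the values were seen, rho was 0.56 with gene starts and 0.45 with gene cover. Pearson r was 0.42 with gene starts and 0.60 with gene cover. In single libraries rho ranged from 0.34 to 0.62 with gene starts and from 0.30 to 0.73 with gene cover. The Zfp window at 9 to 10 Mb went against its low cover of 20.2%, with 0.835% ± 0.505 (SD, n = 6) of its ends captured, a rank of 7 among the 14.

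**Figure D3:**
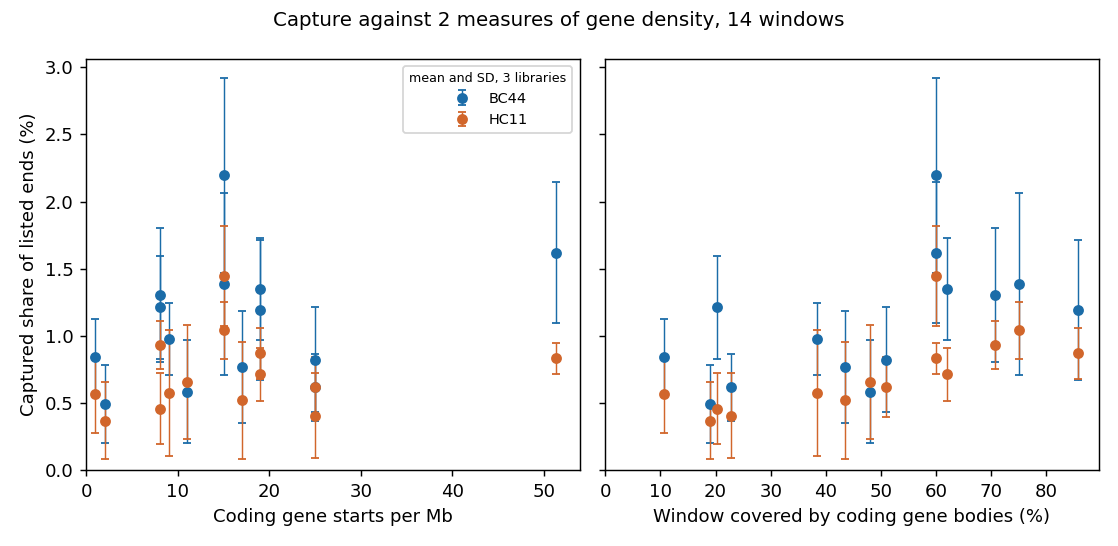
Captured share of listed fragment ends (percent) in the 14 windows against coding gene starts per Mb (left) and the percent of the window covered by coding gene bodies (right); points and bars are the mean and SD of 3 libraries in BC44 (blue) and HC11 (orange). The share rises with gene cover (rho 0.71 for the mean of 6 libraries) more clearly than with gene starts (rho 0.23).

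Ends were next pooled by class within each library, where the sign for gene starts depended on how windows at the median were counted. In the 6 windows with over 15 gene starts per Mb, the median, 0.858% ± 0.360 (SD, n = 6) of ends were captured. The other 8 had 0.957% ± 0.343 (SD, n = 6). The difference of -0.0997 points was negative in 5 of 6 libraries (exact p = 0.0625, adjusted p = 0.0781). The windows that start at 11 and 12 Mb have exactly 15 starts and were counted with the 8. Their mean captured shares, 1.21% and 1.82%, rank 3 and 1. Counted with the 6 instead, they turn the difference positive, a split that was not tested. With windows split by gene cover the difference was 0.552 points (exact test over sign changes, adjusted p = 0.0391). Ends inside coding gene bodies were captured more often than other ends in 6 of 6 libraries. Of 16145 such ends 1.05% ± 0.430 (SD, n = 6) were captured, and of the 16460 others 0.781% ± 0.272 (SD, n = 6), a difference of 0.267 ± 0.177 points (exact p = 0.0312, adjusted p = 0.0521). The ratio ranged from 1.11 in BC44 replicate 3 to 1.48 in BC44 replicate 1. Exons had 1.14% ± 0.378 and the remaining gene body 1.03% ± 0.440 (SD, n = 6), a difference that was not tested. Ends within 10 kb of a coding gene start had 1.02% ± 0.421 (SD, n = 6) against 0.876% ± 0.332 (SD, n = 6) for the others, higher in 5 of 6 libraries and lower in HC11 replicate 1 (exact p = 0.0938, adjusted p = 0.0938). By distance from the nearest coding start, the share was 1.05% at 10 to 50 kb, 0.836% at 50 to 200 kb and 0.479% ± 0.234 (SD, n = 6) beyond 200 kb. None of these 5 within-library differences separated the lines: the exact p for HC11 against BC44 was 0.3 to 0.8.

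**Figure D4:**
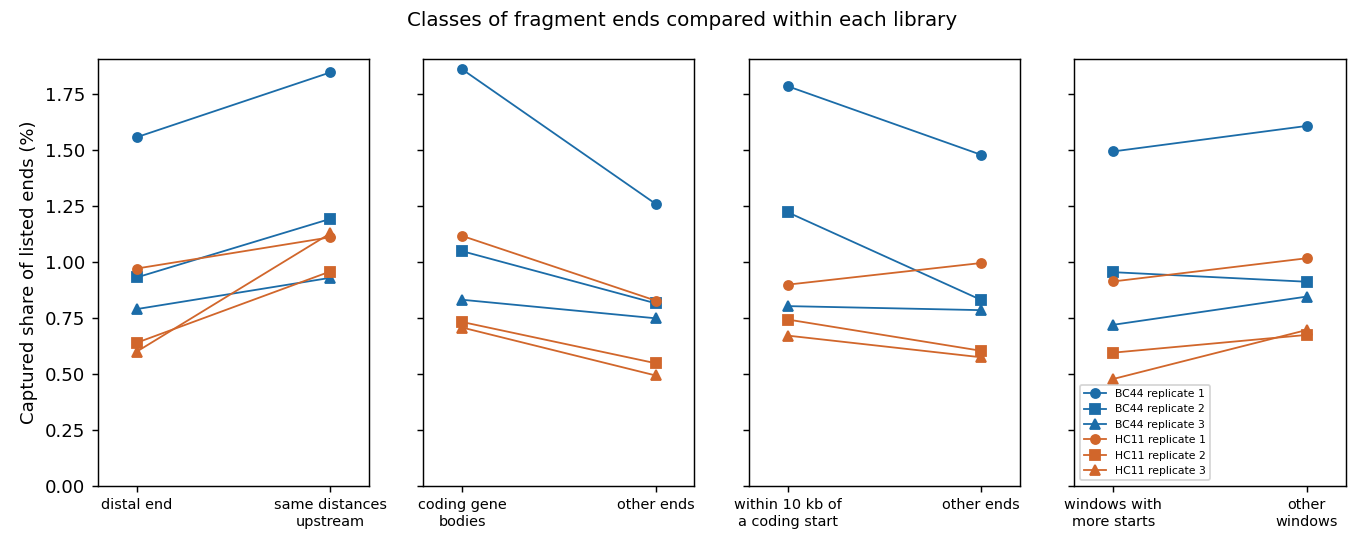
Captured share of listed fragment ends (percent) for 4 pairs of end classes, with a line joining the values of each library (blue BC44, orange HC11; circle, square and triangle for replicates 1, 2 and 3). The first 2 panels slope the same way in 6 of 6 libraries; the panels for gene starts and for windows with more starts each have 1 library that goes against the rest.

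At the level of genes, 137 of the 215 coding genes had at least 20 listed ends in their body. Of these, 13 were captured in all 6 libraries, 69 in at least 3 and 15 in none, and the median of their mean captured shares was 0.855%. Of the 12 genes with the highest mean share, 4 lay in the window at 12 to 13 Mb. That window holds 15 of the 215 coding gene starts and was itself the highest on the same captured ends. Spsb1 (chr4:149270392-149329152) had 5, 7 and 6 captured ends of 163 in the BC44 libraries and 6, 5 and 0 in the HC11 libraries. Slc2a5 (chr4:149493392-149518278) had 1 or 2 of 58 ends in every library, 2.87% ± 0.890 (SD, n = 6). Tmem201, which encodes an inner nuclear membrane protein, had the highest mean, 3.94% ± 5.32 (SD, n = 6), but 8 of its 12 distinct ends were captured in BC44 replicate 1. Gpr157, an orphan receptor gene, had 2.33% ± 1.51 (SD, n = 6). The others were Gm13251, Apitd1, Vamp3, Klhl21, Acap3, Ube2j2, Dnajc11 and Nadk, at 2.13% to 2.96%. Apart from Dnajc11, with 13 ends over all 6 libraries, and Nadk, with 11 ends in 5, each of these rested on 3 to 8 ends. Zfp534, with 48 listed ends, was the longest by listed ends of the 15 genes captured in no library, and Mad2l2, Ttc34, Pramef8 and Gm13178 were among them.

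Gene families were counted with 10 kb on each side of the gene, so neighbours share ends. Of all 215 coding genes, 95.8% had a captured end in some library, 64.2% in at least 3 libraries, and the median of the mean captured shares was 0.909%. The 3 Wnt pathway genes all had captured ends. Ctnnbip1 had 21 in all 6 libraries, Draxin, a secreted Wnt antagonist gene listed as 2610109H07Rik, had 10 in 3 libraries, and Dvl1 had 5 in 2 libraries, 4 of them in BC44 replicate 1. Among the 7 TNF receptor family genes, 4 were captured in at least 3 libraries, led by Tnfrsf25 with 1.83% and Tnfrsf9 with 1.25%; Tnfrsf18, near the telomere, was captured in none of the 6, with 0 of 59 ends. The genes Hes2, Hes3 and Hes5, which encode transcriptional repressors of the Hes family, had captured ends in 3, 4 and 2 libraries. Of 10 broadly expressed genes, such as Eno1, Gnb1 and the ribosomal protein gene Rpl22, 9 were captured in at least 3 libraries, with a median of 1.07%. Of 10 tissue-restricted genes 8 were, with a median of 0.825%; the brown-fat regulator gene Prdm16, at 928 listed ends the longest stretch of them, had 0.539%, and the neuronal chromatin remodeller gene Chd5 had 1.41%. The Pramel, Pramef and Oog genes had a median of 0.575%, with 8 of 23 captured in at least 3 libraries. The Zfp genes had 6 of 15 and a median of 0.909%, and the 15 include 2 annotation entries of Gm13151, whose flanks overlap. Counts of libraries were not adjusted for the number of listed ends. Summed over genes, these were 1529 for the 23 Pramel, Pramef and Oog genes, 2472 for the 10 tissue-restricted genes and 27074 for all 215. Expression was not measured in these data.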

How the data were processed

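The authors processed only the first read of each pair, per the labels' protocols, and mapped and filtered to mm9 with the deWitLab 4C mapping pipeline at its defaults, per the series' design text; the aligner and versions are not given in the sources used here. The deposited values are whole-number read counts per fragment end of chromosome 4, not normalised. All listed positions are the first or last base of a GATC site in mm9, and 100% had a CATG site in the fragment they were assigned to here, against 66.6% in the neighbouring fragment. Libraries were grouped by the line and replicate number in their titles. An end counted as captured with at least 1 read. Windows of 1 Mb were counted outwards from the viewpoint end (136832108) and tested with edgeR 4.0.16 (glmQLFit and glmQLFTest, TMM, at least 10 reads in at least 3 libraries, Benjamini-Hochberg); DESeq2 1.42.0 was an alternative. Shares were compared by exact permutation over 20 relabellings or 64 sign changes. Rarefaction used the hypergeometric expectation. Genes came from GENCODE release M1 (mm9), and 204 of 215 coding genes matched a RefSeq symbol, used for names only (GRCm38.p6). The tests were checked on simulated data. Members, gene lists and tests were chosen with earlier results of these data known. No end met the naming rule (captured in at least 5 of 6 libraries), so the 4 most recurrent and the 2 highest were named after their values were seen. Windows, genes and the lists followed the rule: all windows, the 12 genes of the highest mean captured share, those captured in none, and the 3 windows of lowest unadjusted p. Depth limits precision: the 95% Wilson interval is given beside each library's captured share of the whole distal end, and other shares carry the SD over libraries where one is given.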

Additional observations from a re-analysis of the deposited data

How the results depend on the processing

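The difference between the lines in the read share was -0.273 points; with reads over 1 Mb away as the total it turned to 0.656 points, and leaving out 1 library gave -0.613 to 0.0794 points. The captured share difference kept its sign in all alternatives run, -0.507 to -0.124 points when 1 library was left out. Correlations of same-numbered deviations were 0.117, 0.0737 and -0.0309 over 148 windows, so the numbers were not taken as pairs, although both replicate 1 libraries share a high read share near the viewpoint; with the replicate block the differences stayed -0.273 and -0.356 points and 0 windows passed in edgeR. In every alternative 0 of the distal windows passed; at an unadjusted p under 0.05 there were 2 without HC11 replicate 1 and 2 with windows on whole Mb positions, 1 each with DESeq2, without TMM and with 0.5 Mb windows, and 0 in the others. The 5 within-library comparisons kept their signs when 1 library was left out: -0.307 to -0.229 points against the same distances upstream, 0.439 to 0.561 against all upstream ends, 0.200 to 0.304 for gene bodies, 0.0928 to 0.190 for gene starts and -0.128 to -0.0760 for windows with more starts. With reads (percent of reads per 1000 listed ends) in place of ends, 4 passed at an adjusted p of 0.0391, each at the smallest p that 6 libraries can give: -0.0495 upstream at the same distances, 0.0556 against all upstream, 0.0279 for gene bodies and -0.0281 for windows with more starts. Counted by captured ends, windows split by gene cover in place of starts differed by 0.552 points, against -0.0997 points when split by starts. The split by gene starts counts windows with exactly 15 starts per Mb as having fewer. The Spearman correlation with gene density was 0.71 with gene cover, 0.40 with 0.5 Mb windows, 0.0949 with reads, 0.0691 without the last window and 0.56 without paralogue windows (chosen after seeing the data); 1 library left out gave 0.15 to 0.25. With 5 libraries the smallest sign-change p is above 0.05, and the few captured ends per window limit what depth can resolve.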

Other observations

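Captured ends at the distal end differed from the listed ends in fragment size. The median DpnII fragment was 451 bp for all listed ends and 512 to 636 bp for the captured ends of the 6 libraries, longer in 6 of 6. The median length from the DpnII to the NlaIII site was 118 bp for listed ends and 120 to 138 bp for captured ends. GC content in the 10 kb around an end hardly differed, with a median of 48.0% for listed ends and 47.9% to 48.7% for captured ends.

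Ends shared by 2 libraries were few in every pairing. Between 0 and 10 ends were shared, 0% to 3.50% of either library's captured ends. The 3 pairs within BC44 shared 7 to 10 ends and the 3 pairs within HC11 0 to 2, while the 9 pairs between lines shared 3 to 10. These counts rise with the number of captured ends, 257 to 507 per library in BC44 and 195 to 316 in HC11. They were not adjusted for it, and the difference between lines was not tested. At the same distances upstream, 4.69% of captured ends recurred in 2 or more libraries, against 4.15% at the distal end. Both ends of 1 DpnII fragment were captured in 1 to 4 fragments per library.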
